A study of Mus musculus with 4 samples.

Results

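The 44 proteasome subunit genes were those whose symbols consist of Psma, Psmb, Psmc, Psmd, Psme or Psmf and a number, chosen by name and not by any measured value, out of 24421 genes in the count tables. A low-count filter kept 16322 genes, and all 44 were among them. They comprised 7 alpha and 4 structural beta genes of the 20S core, 3 constitutive catalytic genes (Psmb5, Psmb6 and Psmb7), 3 immunoproteasome catalytic genes (Psmb8, Psmb9 and Psmb10) and 6 ATPase and 11 non-ATPase genes of the 19S particle. The remaining members were 3 assembly chaperones of the 19S particle, 4 activators, 1 inhibitor and 2 subunits known from germ cells (Psma8) and thymic epithelium (Psmb11).

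The proteasome degrades proteins tagged with ubiquitin. Alpha subunits form the outer rings of the barrel-shaped 20S core and gate its entrance, while beta subunits form the inner rings and hold the proteolytic sites. The 19S particle binds ubiquitin chains, unfolds the substrate and feeds it into the core. In lymphocytes, and in many cells exposed to interferon gamma, Psmb8, Psmb9 and Psmb10 take the places of Psmb5, Psmb6 and Psmb7 in newly assembled cores. The resulting immunoproteasome favours cleavage products that suit peptide presentation on MHC class I.

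RNA was sequenced from regulatory T cells (Tregs), the CD4-positive T cells that restrain immune responses and depend on the transcription factor Foxp3. CD45.1+ mice carried EG7.1.15 tumor cells given into the peritoneal cavity and were joined by surgery to tumor-free CD45.1- partners for 14 days, so that the pair shared blood. Partner-derived Tregs were sorted from the omental tumors and from the spleens of the tumor-bearing parabionts as live cells that lacked CD45.1 and B220 and carried CD4, CD25, CD45.2 and the green reporter of Foxp3, at day 14 after tumor injection. Each tissue gave 2 libraries, from mouse 2 and mouse 3. All 4 are labelled with the strain B6 Foxp3-DTR/GFP, an allele that places a diphtheria toxin receptor and green fluorescent protein under control of Foxp3, and the labels name no toxin treatment. No tumor-free pair is among the samples, so the contrast is between tissues of tumor-bearing mice, and each library stands for 1 mouse. The comparison asks how Tregs that reach omental tumors differ from those that reach the spleen.

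Counts in genes were 6660230 and 3764508 in the omental libraries of mouse 2 and mouse 3, and 9989005 and 13598631 in the spleen libraries, so the omental values carried more counting error. The sort genes were present in each library, although all 4 were lower in both omental libraries than in either spleen library: Foxp3 was at 81.4 and 84.3 CPM (counts scaled to a common library size with TMM factors) against 113 and 144, and Cd4 at 376 and 114 against 568 and 1008. Il2ra, which encodes CD25, was at 689.9 and 319.5 CPM against 699.7 and 886, and Ptprc, which encodes CD45, at 2077 and 925 against 2596 and 4034. Of the 9 Treg and T cell genes in the files, 5 were lower in both omental libraries than in either spleen library, as were 25.4% of all tested genes. Ctla4 went the other way, at 1239 and 1290 CPM against 391 and 764. The tissues overlapped for Cd3d, Cd3g and Ikzf2, and 0 of the list were called. Markers of other cells were also read. The 9 neutrophil markers in the files summed to 160 and 1468 CPM in omental tumor against 102 and 68.3 in spleen, and the 6 fibroblast markers to 170.1 and 13.9 against 12.8 and 6.50. The 10 macrophage and monocyte markers summed to 509 and 849.7 CPM against 228 and 453, but 6 of them were lower in omental tumor and the median log2 fold change of the list was -0.43. Lyz2, at 250.1 and 297 CPM against 6.85 and 61.8, made up much of the sum, and Csf1r, at 38.7 and 14.4 against 69.9 and 109.7, went the other way. By the test described next, 4 neutrophil, 2 macrophage and monocyte, 1 fibroblast and 1 adipocyte marker were called, all higher in omental tumor. The lymphoma or immature T cell list, which bears on the tumor cells injected, summed to 48.8 and 44.8 CPM against 22.5 and 9.24. Of the red cell list 3 of 4 genes were at 0 in each library. The part of these cells in the proteasome values was not tested. In bulk libraries fewer cells of a type and less RNA per cell cannot be told apart.

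No proteasome subunit gene passed the test between tissues. At an adjusted p under 0.05 (edgeR's quasi-likelihood test with Benjamini-Hochberg adjustment over all tested genes) 0 of 44 were called, where 1.32% of all tested genes were. The lowest adjusted p among the 44 was 0.751. At an unadjusted p under 0.05 the count was also 0, against 9.01% of all genes. DESeq2 called 0 of the 43 to which it gave an adjusted p, against 2.88% of the 12841 genes to which it gave one. With the mouse as a replicate block 0 were called, against 1.89%. The groups did not overlap for 1 member that was higher in omental tumor (Psma8), where 16.4% of all genes behaved so, and for 1 that was lower (Psmf1), where 25.4% did.

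The log2 fold changes, omental tumor minus spleen, were positive for 22 members and negative for 22, with a median of 0.01 beside 0.11 over all tested genes. They ran from -0.89 for Psmd2 to 1.84 for Psma8. Standard errors were between 0.76 and 1.39, and the 95% interval of each member included 0, so smaller changes were not detectable with 2 libraries per tissue. Signs of single members were unstable: of the 23 whose levels are given below, 19 turned sign in at least 1 alternative setting, and Psma8, Psmd2, Psme4 and Psmf1 did not. Within mice, 14 members were higher in omental tumor in both, 9 were lower in both and 21 went opposite ways. Over all 16322 tested genes these counts were 6018, 5164 and 5117. The family took 0.922% and 1.28% of all gene counts in omental tumor against 0.781% and 1.03% in spleen, and the ranges overlapped.

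**Figure D1:**
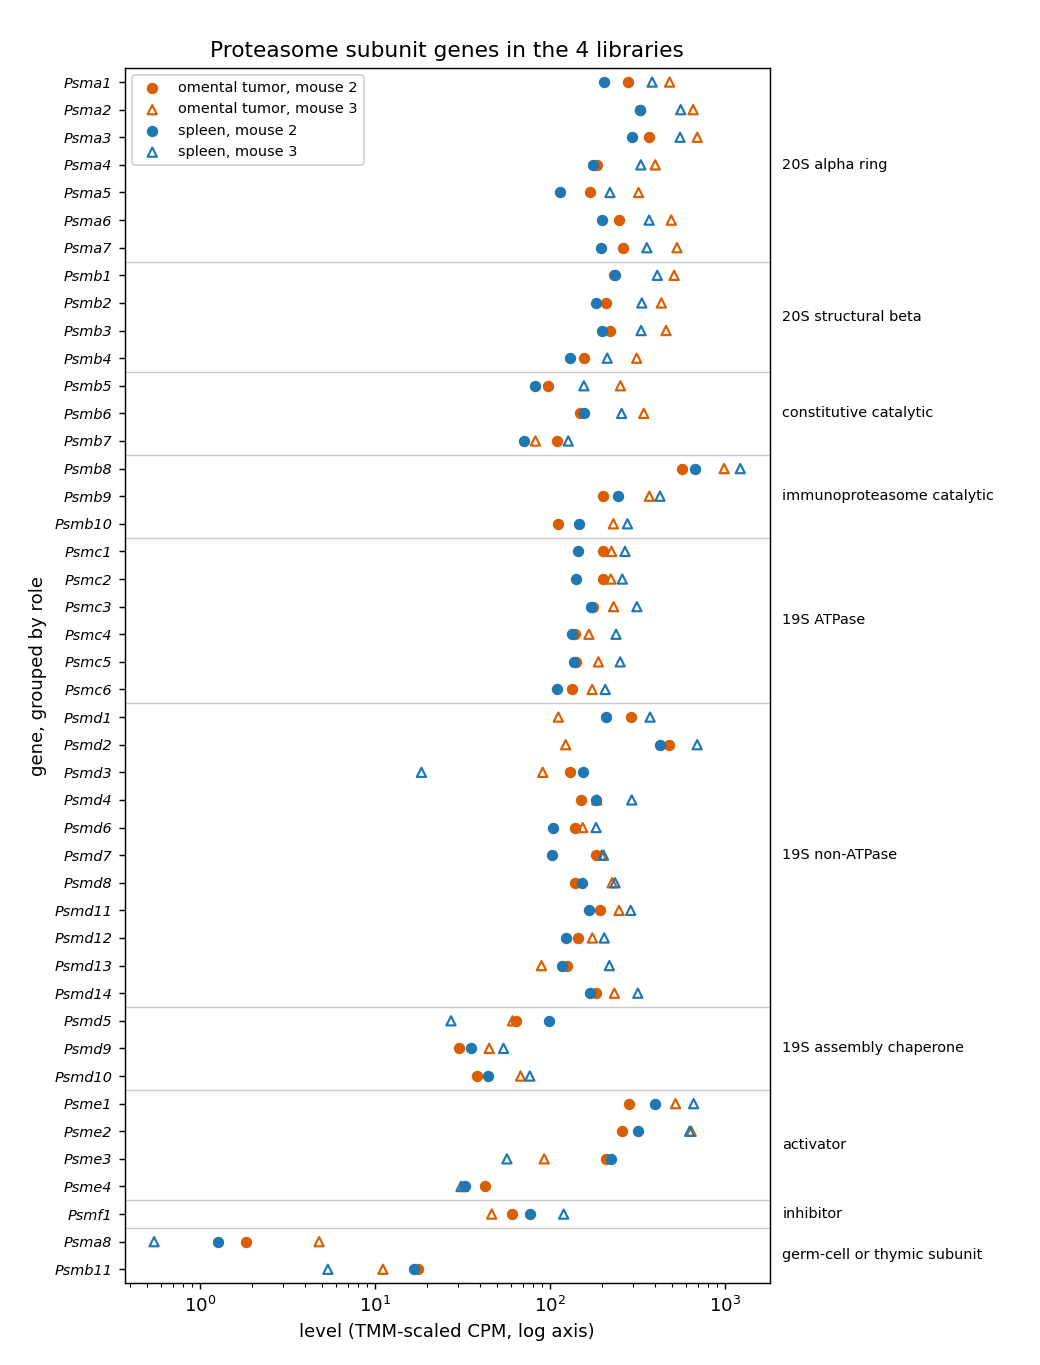
Level of each of the 44 members in each library, in TMM-scaled CPM on a log axis, with genes grouped by role; circles are mouse 2, triangles mouse 3, orange omental tumor and blue spleen. For most genes the triangles lie to the right of the circles in both tissues, and the groups overlap for all but Psma8 and Psmf1.

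The 7 alpha ring genes, Psma1 to Psma7, were each higher in omental tumor in both mice. Their median log2 fold change was 0.38, with 0.33 in mouse 2 and 0.33 in mouse 3. It was 0.23 once the trend with transcript length was removed, with 6 of the 7 genes positive. Leaving out 1 library unbalances the mice, and the median was then -0.28 without omental mouse 3, -0.07 without spleen mouse 2, 0.70 without omental mouse 2 and 1.25 without spleen mouse 3. Psma5 had the largest difference of the ring. Its levels were 169 and 322 CPM in omental tumor against 114 and 221 in spleen (log2 fold change 0.55, SE 0.82, adjusted p = 0.861). Psma2 had the smallest, at 329 and 659 CPM against 328 and 559.7 (0.15, SE 0.85). In both genes the libraries of mouse 3 were the higher ones in each tissue and the tissues overlapped.

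The 4 structural beta genes, Psmb1 to Psmb4, have no catalytic threonine in use and complete the beta rings. All 4 had positive log2 fold changes, with a median of 0.34, and 3 of them were higher in omental tumor in both mice. Psmb4 stood at 156 and 314 CPM in omental tumor against 131 and 213 in spleen (0.45, SE 0.81). Psmb1 stood at 231 and 513 CPM against 236 and 411 (0.20, SE 0.84), and in mouse 2 the omental library was the lower one. The median of the set was -0.38 without omental mouse 3, -0.07 without spleen mouse 2, 0.76 without omental mouse 2 and 1.16 without spleen mouse 3. It was 0.07 once the trend with transcript length was removed, with 2 of the 4 genes positive.

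Among the constitutive catalytic genes, Psmb5 encodes the chymotrypsin-like subunit beta5. It was at 97.9 and 253 CPM in omental tumor against 81.8 and 157 in spleen (log2 fold change 0.56, SE 0.80, adjusted p = 0.858). Psmb6, which encodes the caspase-like subunit beta1, was at 148 and 344 CPM against 156 and 257 (0.25, SE 0.82). Psmb7, which encodes the trypsin-like subunit beta2, was at 109.6 and 82.8 CPM against 70.9 and 128 (-0.04, SE 0.78). Psmb5 was higher in omental tumor in both mice, while Psmb6 and Psmb7 went opposite ways in the mice. The median of the 3 was 0.25, and it was -0.37 without omental mouse 3, -0.12 without spleen mouse 2, 0.72 without omental mouse 2, 1.04 without spleen mouse 3 and -0.15 once the trend with transcript length was removed. Psmb7 was the exception of the 20S core in omental tumor, where mouse 3 was lower than mouse 2. Its exons overlap those of Nek6 on the opposite strand over 405 bases in the GENCODE M21 annotation, and the kits do not mark strand, so its count is less certain. The counts of Psmb5 and Psmb9 share this limit. Exons of Psmb5 overlap Mir686 on the same strand over 109 bases, and those of Psmb9 overlap Tap1 on the opposite strand over 212.

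The immunoproteasome genes went the other way on TMM scaling, all 3 being lower in omental tumor in both mice. As a share of all gene counts, the 3 together were lower in omental tumor in mouse 2 and higher in mouse 3. The shares were 0.101% and 0.167% in omental tumor against 0.110% and 0.155% in spleen. Psmb8, the counterpart of Psmb5, was at 567 and 991 CPM in omental tumor against 679 and 1226 in spleen (log2 fold change -0.29, SE 0.89, 95% interval -2.02 to 1.44, adjusted p = 0.932). Psmb9, the counterpart of Psmb6, was at 201 and 370.4 CPM against 245 and 426 (-0.23, SE 0.83). Psmb10, the counterpart of Psmb7, was at 112 and 231 CPM against 146 and 278 (-0.31, SE 0.81). Their median was -0.29, with -0.28 in mouse 2 and -0.27 in mouse 3. In each gene the order of the TMM-scaled libraries was the same: omental mouse 2, spleen mouse 2, omental mouse 3 and spleen mouse 3, from low to high. The tissues therefore overlapped, and no member of the set passed the test. The sign of this median also depended on scaling: it was 0.01 on library gene totals and 0.28 with upper-quartile factors, which moved the median of all genes by 0.26 and 0.49, and 0.02 at a minimum count of 50. Without omental mouse 2 it was 0.11, and without spleen mouse 3 it was 0.57.

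Ratios of subunits within a library do not depend on its scaling. The summed counts of Psmb8, Psmb9 and Psmb10 were 2.47 and 2.34 times those of Psmb5, Psmb6 and Psmb7 in omental tumor, and 3.47 and 3.56 times in spleen. Both omental libraries were below both spleen libraries. The log2 difference was -0.55, with -0.49 in mouse 2 and -0.61 in mouse 3. Stated as a share, the immunoproteasome genes held 71.2% of the counts of the 6 catalytic genes in omental mouse 2 (exact binomial 95% interval 70.3 to 72.1) and 70.1% in omental mouse 3 (69.1 to 71.0). In spleen they held 77.6% (76.9 to 78.3) and 78.1% (77.6 to 78.6). The tissues differed by more than the libraries of 1 tissue did and by more than counting error. These intervals cover counting error only, and amplified reads without molecular identifiers are not independent molecules. An exact permutation test of 2 libraries against 2 cannot give a two-sided p below 0.333, so that test cannot pass a threshold of 0.05 for any ratio here.

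The pairs did not contribute alike. Psmb8 counts were 5.79 and 3.91 times those of Psmb5 in omental tumor and 8.30 and 7.83 times in spleen, and the tissues did not overlap. Psmb9 counts were 1.36 and 1.08 times those of Psmb6 in omental tumor and 1.57 and 1.66 times in spleen, again without overlap. Psmb10 counts were 1.02 and 2.79 times those of Psmb7 against 2.06 and 2.18 times. In this pair omental mouse 2 lay below spleen and omental mouse 3 above it, so the tissues overlapped. With Psmb10 and Psmb7 left out, a choice made after seeing the data, the log2 difference of the summed ratio was -0.56. It was -0.32 in mouse 2 and -0.81 in mouse 3, so the mice were less alike than with all 6 genes. The ratios were 3.12 and 2.28 in omental tumor against 3.89 and 3.99 in spleen.

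**Figure D2:**
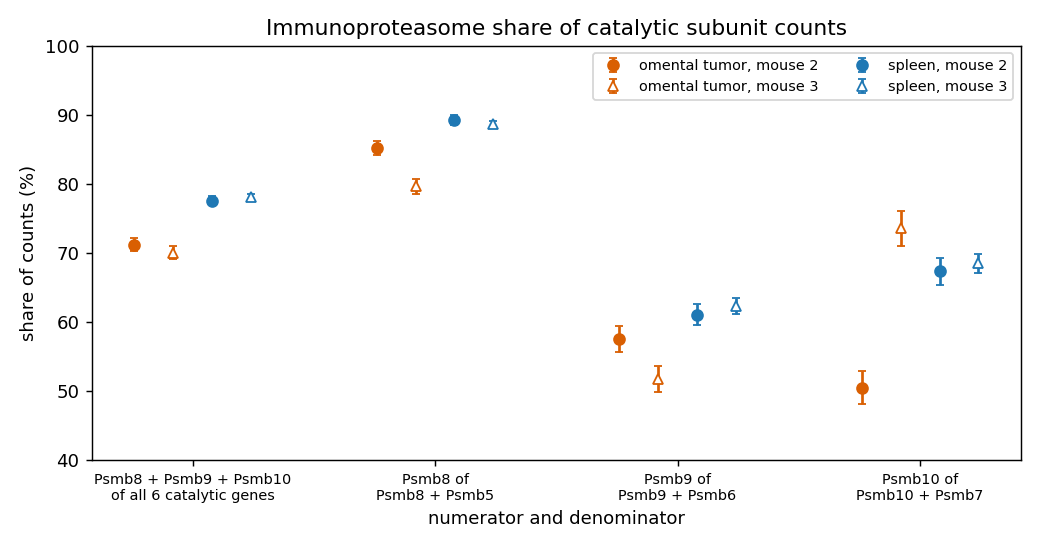
Share of counts, in percent, that came from immunoproteasome genes among all 6 catalytic genes and within each pair, by library; bars are exact binomial 95% intervals, which cover counting error only, and the vertical axis starts at 40%. For all 6 genes the omental libraries sit at 71.2% and 70.1%, below the spleen libraries at 77.6% and 78.1%, while the share of Psmb10 within its pair is spread from 50.5% to 73.6% in omental tumor.

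A wider denominator within the 20S core, which still holds Psmb5, Psmb6 and Psmb7, made little difference, but the 19S particle did. The immunoproteasome genes held 0.101% and 0.167% of gene counts in omental tumor against 0.110% and 0.155% in spleen. The 17 particle genes held 0.361% and 0.320% against 0.282% and 0.368%. Relative to the particle, the immunoproteasome genes were thus lower in omental tumor in mouse 2 and higher in mouse 3. Against the other 14 genes of the 20S core, the immunoproteasome genes were at ratios of 0.292 and 0.266 in omental tumor against 0.417 and 0.418 in spleen, a log2 difference of -0.59. Psme1 and Psme2, the interferon-inducible activator genes, gave the same order against those 14 genes, at 0.180 and 0.195 against 0.280 and 0.280 (-0.58). Transcript length moved with the contrast between the catalytic sets. The median transcript was 1352 bases for the immunoproteasome genes and 798 for the constitutive ones. The difference of their median log2 fold changes was -0.54, and -0.26 once each library's trend with transcript length was removed, a setting chosen after seeing the data. Over the other 12 settings it lay between -0.61 and -0.46. Those that change only the scaling, the filter or the dispersion shift both sets nearly alike, so they could hardly move this difference.

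Levels of different genes can be set side by side only per length, as CPM per kilobase of transcript. On that scale Psmb8 was the highest of the 6 catalytic genes in each library, at 348 and 609 in omental tumor against 417 and 753 in spleen. Psmb5 was at 129 and 333 against 108 and 206. The per-kilobase sums of the 3 immunoproteasome genes were 1.42 and 1.27 times those of the constitutive genes in omental tumor and 1.95 and 2.01 times in spleen. With the union of all exons as the length these ratios were 1.50 and 1.35 against 2.04 and 2.11.

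In the mouse genome (GRCm38) Psmb8 lies at chr17:34197721-34201454 on the plus strand and Psmb9 at chr17:34181987-34187764 on the minus strand, where 212 bases of its exons overlap those of the peptide transporter gene Tap1. Psmb10 lies at chr8:105935735-105938444, Psmb5 at chr14:54614119-54618022, Psmb6 at chr11:70525367-70527858 and Psmb7 at chr2:38588036-38644087. The 160 bases before the annotated start are shown for an immunoproteasome gene and for 2 constitutive genes, since these are the sets whose ratio differed between tissues. They are RefSeq promoter sequences of GRCm38.p6, 5′ to 3′ on the gene's strand, and lie outside every GENCODE M21 exon. Capitals mark the core of the antioxidant response element, TGACNNNGC, a motif bound by factors of the Nrf family.
Psmb10 (chr8:105938445-105938604, minus strand): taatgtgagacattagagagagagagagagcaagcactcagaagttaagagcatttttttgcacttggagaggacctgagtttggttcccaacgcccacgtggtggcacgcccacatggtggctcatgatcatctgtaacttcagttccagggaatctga
Psmb5 (chr14:54618023-54618182, minus strand): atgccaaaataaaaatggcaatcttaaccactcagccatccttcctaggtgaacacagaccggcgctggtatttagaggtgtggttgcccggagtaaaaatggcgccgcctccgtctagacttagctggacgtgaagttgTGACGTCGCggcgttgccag
Psmb6 (chr11:70525207-70525366, plus strand): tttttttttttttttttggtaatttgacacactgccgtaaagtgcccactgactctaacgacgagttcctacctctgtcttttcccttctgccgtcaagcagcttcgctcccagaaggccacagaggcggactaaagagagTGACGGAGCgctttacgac
The stretches of Psmb5 and Psmb6 each hold this motif close to the start, and the stretch of Psmb10 does not. The windows of Psmb8 and Psmb9 lie within annotated exons, and Psmb7 had no window. Psmb10 thus stands alone for its set, and its pair was the one that overlapped between tissues. The stretches therefore do not compare the sets.

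Windows of 300 bases, from 250 before to 50 after the start, matched 37 of the 44 members in 40 windows. Each motif was searched on both strands. TGACNNNGC was in 15.0% of the member windows and in 12.4% of all 32851 windows. None of the 6 windows of Psmb8, Psmb9, Psmb10, Psme1 and Psme2 held it. The core of the interferon-stimulated response element, GAAA repeated after any 2 bases, was in 10.0% of the member windows and 3.44% of all windows, and among the 5 interferon-inducible genes it was found at Psme1. The interferon gamma activated site, TTCNNNGAA, was in 2 member windows, those of Psmb8 and Psmd2, and in 8.30% of all windows. GGGCGG, the GC box, was in 57.5% against 35.7%, and CCAAT in 35.0% against 37.4%. A match is a description of these letters and not evidence of a bound site.

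The 6 ATPase genes of the 19S base, Psmc1 to Psmc6, encode the ring that unfolds substrates. All 6 were higher in omental tumor in mouse 2 and lower in mouse 3, and their median log2 fold change was -0.14. Without spleen mouse 3 the median was 0.68, and without spleen mouse 2 it was -0.57. Psmc2 was at 200.4 and 223 CPM in omental tumor against 141 and 259 in spleen (0.08, SE 0.81). Psmc4 was at 139.8 and 167 CPM against 134 and 239 (-0.28, SE 0.80). In both genes the omental libraries lay between the spleen libraries, so the ranges overlapped. Exons of Psmc3 overlap Slc39a13 on the opposite strand over 291 bases.

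The 11 non-ATPase genes of the 19S particle include ubiquitin receptors, scaffold subunits and the deubiquitinase gene Psmd14. Of these, 9 went opposite ways in the mice. The median was -0.09, and its sign turned in 7 of 13 other settings, being 0.59 without spleen mouse 3. Psmd2, which encodes a large scaffold subunit, was at 481 and 123 CPM in omental tumor against 426 and 695 in spleen (-0.89, SE 0.86, adjusted p = 0.802). Omental mouse 3 was the low library, and without it the log2 fold change was -0.31. Psmd3, a lid subunit gene, was at 130.1 and 91.1 CPM in omental tumor against 155 and 18.5 in spleen (0.35, SE 0.78). Here spleen mouse 3 was the low library, and the tissues overlapped.

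The core and the 19S particle differed mainly in omental mouse 3. The CPM sum of the 14 core genes over that of the 17 particle genes was 0.957 in omental mouse 2, 1.96 in omental mouse 3, and 0.932 and 1.01 in spleen. The other 3 libraries were close to each other. The median log2 fold change of the core genes exceeded that of the particle genes by 0.43, by 0.00 without omental mouse 3 and by 0.66 without omental mouse 2. Of the 17 particle genes, 15 went opposite ways in the mice, and of the 14 core genes 11 were higher in omental tumor in both. On the per-length scale the median core gene was at 173 and 359.7 CPM per kilobase in omental tumor against 154 and 292 in spleen. The median particle gene was at 104 and 125 against 85.0 and 155.

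**Figure D3:**
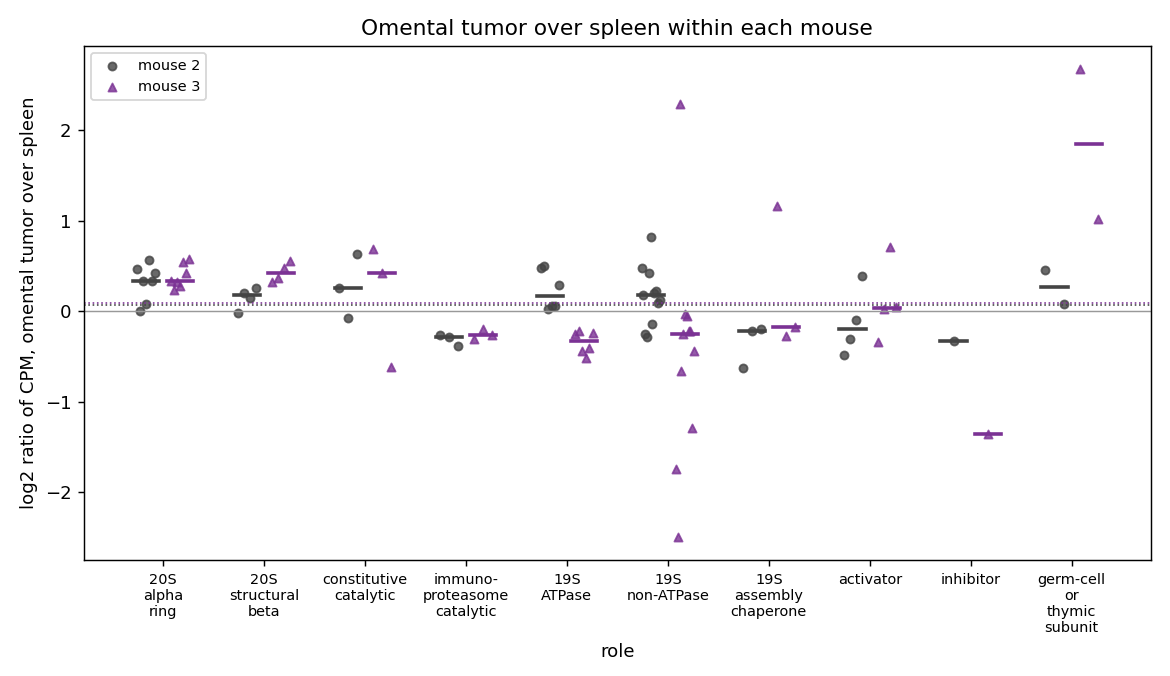
Log2 ratio of CPM, omental tumor over spleen, for each member within mouse 2 (circles) and mouse 3 (triangles), by role; short bars are medians of a role and dotted lines the medians of all tested genes in each mouse, 0.07 and 0.09. On TMM scaling the alpha ring lies above 0 in both mice and the immunoproteasome genes below it in both. On the same scale the 19S ATPase genes lie above 0 in mouse 2 and below it in mouse 3.

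The assembly chaperones of the 19S particle, Psmd5, Psmd9 and Psmd10, bind its ATPases before the particle is complete. Their median log2 fold change was -0.19, and 0.40 without spleen mouse 3. Psmd9 was at 30.3 and 45.1 CPM in omental tumor against 35.4 and 54.4 in spleen (-0.26, SE 0.76), lower in both mice. Psmd5 was at 64.1 and 61.3 CPM against 98.8 and 27.3 (-0.01, SE 0.76), and its spleen libraries lay on either side of the omental ones. Their median level per length, 14.6 and 17.4 CPM per kilobase in omental tumor against 22.5 and 20.96 in spleen, was below that of the particle they assemble in each library.

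Psme1 and Psme2 encode the alpha and beta subunits of the PA28 cap, which opens the core without ubiquitin. Psme1 was at 285 and 523 CPM in omental tumor against 400.1 and 663 in spleen (-0.40, SE 0.85), lower in both mice. Psme2 was at 258 and 643 CPM against 319 and 629.8 (-0.08, SE 0.85), lower in mouse 2 and about level in mouse 3. Per length of the median transcript Psme1 was the highest of all 44 members in each library, between 401 and 933 CPM per kilobase. With the union of all exons as the length it was the highest in none, and Psme2 led in omental mouse 3 and Psmb8 in the other 3 libraries.

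Psme3, which encodes the nuclear PA28 gamma activator, was at 209.8 and 92.9 CPM in omental tumor against 224 and 56.9 in spleen (0.11, SE 0.80). Both libraries of mouse 3 were the low ones, unlike those of Psme1 and Psme2. Psme4, which encodes the PA200 activator, was at 42.8 and 32.2 CPM against 32.6 and 31.1 (0.24, SE 0.76), with overlap.

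Psmf1 encodes PI31, a protein known as an inhibitor of the 20S core in vitro. It was at 60.9 and 46.6 CPM in omental tumor against 76.9 and 120.05 in spleen, and it was the only 1 of the 44 genes with both omental libraries below both spleen libraries. The log2 fold change was -0.87 (SE 0.77, 95% interval -2.38 to 0.64, adjusted p = 0.787). It kept its sign in all 13 other settings, between -1.22 and -0.30.

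Psma8, which replaces Psma7 in the proteasome of germ cells, was near the limit of detection, with 14 and 19 counts in omental tumor against 13 and 6 in spleen. These were 1.84 and 4.81 CPM against 1.27 and 0.549 (log2 fold change 1.84, SE 1.39, adjusted p = 0.751). Both omental libraries were above both spleen libraries. Psmb11, the beta5t subunit of thymic epithelium, was at 17.7 and 11.1 CPM against 16.7 and 5.40 (0.39, SE 0.86), with overlap. Per length neither exceeded 4.17 CPM per kilobase in any library.

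Most members were higher in mouse 3 than in mouse 2, whichever the tissue. Of the 44 members, 34 were higher in mouse 3 than in mouse 2 in omental tumor and 38 were in spleen, with median log2 differences of 0.49 and 0.83. Over all tested genes these medians were -0.63 and -0.15. The difference moved with transcript length. Members under 1500 bases had a median of 0.96 in omental tumor (22 genes), those from 1500 to 2500 bases 0.37 (13 genes) and those over 2500 bases -0.41 (9 genes). All tested genes of the same classes had medians of 0.49, -0.44 and -0.93. In spleen the 3 classes of members were at 0.86, 0.86 and 0.62, and those of all genes at 0.39, 0.06 and -0.24. As a description across genes, which are not independent and share the same 4 libraries, Spearman's rho with length was -0.67 over the 44 members in omental tumor and -0.45 in spleen, and -0.34 and -0.18 over 14612 genes. The 14 core genes had a median of 1.01 in omental tumor and the 17 particle genes 0.26, with 0.87 and 0.84 in spleen. In omental tumor the particle genes under 1500 bases (Psmc4, Psmc5, Psmd4, Psmd6 and Psmd13) were at -0.48 to 0.42. The core genes over 1500 bases (Psma2, Psma3 and Psmb1) were at 0.92 to 1.15, and Psmb7, a shorter one, at -0.40. Length was not tested apart from role. The omental library of mouse 3 had 3764508 counts in genes, the fewest, and 49.9% of its entries were alignments that were not unique. The part of depth or RNA quality in these differences was not tested.

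**Figure D4:**
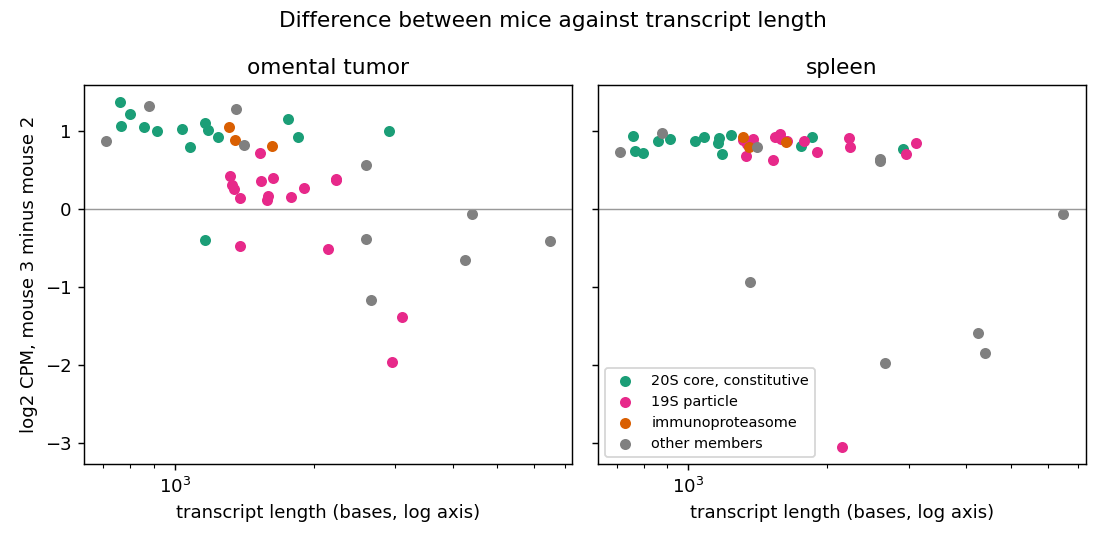
Log2 CPM of mouse 3 minus mouse 2 for each of the 44 members against transcript length in bases (log axis), in omental tumor (left) and spleen (right), coloured by role. In omental tumor short transcripts lie near 1 and the longest below 0, and in spleen most members lie between 0.6 and 1 with 6 below 0.

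Genes of related pathways were read from lists fixed by function. The 5 assembly chaperones of the 20S core all had positive log2 fold changes, as 13 of the 14 constitutive core genes did, and none was called. Psmg1 was at 47.4 and 82.5 CPM in omental tumor against 32.8 and 49.0 in spleen (0.67). Pomp, the maturation factor that is degraded by the finished core, was at 133 and 399 CPM against 127 and 259 (0.46). Both were higher in omental tumor in both mice, with overlap between tissues.

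Of 11 genes of class I presentation and of interferon control of immunoproteasome genes, 10 were lower in omental tumor, 0 were called and the median was -0.92. Both omental libraries were below both spleen libraries for 8 of them, as for 25.4% of all genes. Tapbp, which encodes the chaperone tapasin, was at 660.4 and 354 CPM in omental tumor against 1003 and 1670.1 in spleen (-1.40, SE 0.90, adjusted p = 0.693). Nlrc5, the transactivator of class I genes, was at 273 and 105 CPM against 457 and 479 (-1.31, SE 0.85). In both genes omental mouse 3 was the lowest library. B2m, the light chain of class I, was the gene of the list with a positive value (0.25).

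Interferon-stimulated genes were mixed. Of 15, 10 were higher and 5 lower (Gbp3, Gbp4, Igtp, Iigp1 and Mx1), and 2 were called, both higher. Both omental libraries were above both spleen libraries for 0 of the 15, where 16.4% of all genes behaved so. They were below for 3, where 25.4% did. Rsad2, which encodes the antiviral enzyme viperin, was at 20.5 and 2176 CPM in omental tumor against 15.95 and 22.8 in spleen (5.82, SE 1.06, adjusted p = 1.71e-05). Ifit3 was at 10.2 and 511 CPM against 30.4 and 38.0 (2.93, SE 0.86, adjusted p = 0.048). In both genes omental mouse 3 alone was high. Without that library the log2 fold changes were -0.01 and -1.83, and neither was called. Rsad2 was also not called on library gene totals, at a minimum count of 50, by DESeq2, with the replicate block or without either spleen library, and Ifit3 was called in 3 of 13 other settings. The median of the list was -0.40 in mouse 2 and 1.04 in mouse 3. The immunoproteasome genes, which interferon gamma can induce, had medians of -0.28 and -0.27 in the same mice. The neutrophil markers S100a8, at 0.13 and 412 CPM against 6.26 and 9.52, and S100a9, at 1.58 and 475 against 9.10 and 7.50, were high in that library too, and their part was not tested.

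No gene of the other pathway lists was called. Among 8 shuttle and unfoldase genes tested, 5 were lower, the lowest being Ubqln4 (-1.47), a ubiquitin receptor that carries substrates, and Vcp (-1.19), the p97 unfoldase. Vcp was at 724 and 125 CPM in omental tumor against 738 and 1195 in spleen, so omental mouse 3 was again the low library. Of 6 ubiquitin and E1 genes 3 were higher and 3 lower, with Uba1, the main ubiquitin-activating enzyme, at -1.14 and Rps27a, a ubiquitin fusion gene, at 0.64. Of 6 genes of transcriptional control 4 were higher, and the furthest from 0 were Ngly1 (-1.17), which processes the factor Nrf1, and Ddi2 (0.87), the protease that cleaves it. Of 6 further proteasome-bound genes 4 were higher, with Shfm1, which encodes a small subunit of the lid, at 0.64 and AI314180 at -0.78. Of 12 cell cycle genes 7 were higher, with Ccna2, a cyclin gene, at 1.63 and Cdk1, a cell cycle kinase gene, at 1.08. Ccna2 was at 12.2 and 91.6 CPM in omental tumor against 23.8 and 9.70 in spleen, so omental mouse 3 alone was high, and its lowest value over the other settings was -0.54.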

How the data were processed

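Whole-number read counts per gene symbol were deposited, 1 file per library. Per the labels' protocols, SMART-seq v4 cDNA and Nextera XT libraries were made from total RNA. Per the submitters' processing notes, the authors used Trim Galore, TopHat2, SAMtools and HTSeq with mm10; the sources used here give no versions, annotation or strand setting. The 5 HTSeq summary entries of each file, which name no gene, were left out of library sizes and tests; genes received 17.1% and 22.2% of all entries in omental tumor and 24.9% and 46.0% in spleen.

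The test was run with edgeR 4.0.16 in R 4.3.3: filterByExpr at a minimum count of 10, TMM factors (1.15 and 1.05 in omental tumor, 1.03 and 0.804 in spleen), and the quasi-likelihood test of tissue alone with Benjamini-Hochberg adjustment over 16322 genes at 0.05. The code was tested on simulated data. The prior degrees of freedom were infinite, so SE and p reflect a spread pooled over genes. Intervals reach 1.96 SE to either side. Ratios within mice used log2 CPM with a prior count of 2. Transcript length is the median over protein-coding transcripts of GENCODE M21, on the same build as mm10. Where no library is named, a pair of values gives mouse 2 first and mouse 3 second.

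The mouse numbers mark the same animal in both tissues, per the labels, and so pair the libraries. Deviations from tissue means correlated at 0.234 over 16322 genes. With 2 libraries per tissue this is a single correlation of the differences between the mice, so it does not test the pairing. P-values measure only the spread between these 4 libraries. Values were given for the catalytic, activator and inhibitor genes, for the members with the highest and the lowest log2 fold change in each role, and for each related list's called genes and its 2 with the largest absolute log2 fold change. Genes named outside this rule, such as B2m and the neutrophil markers, were chosen after their values were seen. The members and lists were chosen with earlier results of these data known. Alternatives were RLE, upper-quartile and unadjusted library sizes, no filter, a minimum count of 50, DESeq2 1.42.0, the mouse as a block and each library left out; edgeR's bias-adjusted dispersions and removal of the trend with transcript length were added after seeing the data.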

Additional observations from a re-analysis of the deposited data

How the results depend on the processing

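The count of members called was 0 in all 13 other settings, including the replicate block, in which the lowest adjusted p of a member was 0.363; 1 member had an unadjusted p under 0.05 without omental mouse 2. Directions were less stable, and of 23 members named 4 kept their sign in all settings that could be fitted. The ratio of immunoproteasome to constitutive genes differed by -0.61 to -0.49 on the log2 scale under its alternatives. These ends equal the values of mouse 3 and of mouse 2 alone, and scaling between libraries cannot move such a ratio. The mean of the 3 pairwise ratios differed by -0.58 in mouse 2 and -0.42 in mouse 3. The pair Psmb10 over Psmb7 gave -1.02 and 0.36, and the summed ratio without that pair -0.32 and -0.81. The difference of the 2 sets' median log2 fold changes shrank from -0.54 to -0.26 once the trend with transcript length was removed. The count of related pathway genes called, 2 in the report, was 1 with RLE factors, upper-quartile factors or no filter, and 0 with library gene totals, a minimum count of 50, DESeq2 or the replicate block. With each library left out in turn it lay between 0 and 7, the 7 being without omental mouse 2. Without omental mouse 3, which ended both calls, Ifit3 was at -1.83 and Rsad2 at -0.0091, and without omental mouse 2 they were at 3.89 and 6.80. Upper-quartile factors gave medians of 0.47 for the 19S non-ATPase genes, 0.38 for the 19S chaperones and 0.52 for the activators. With each library left out in turn, medians ran from -0.28 to 1.25 for the alpha ring, -0.38 to 1.16 for the structural beta genes, -0.37 to 1.04 for the constitutive catalytic genes, -0.84 to 0.57 for the immunoproteasome genes, -0.57 to 0.68 for the 19S ATPase genes, -0.45 to 0.59 for the non-ATPase genes, -0.48 to 0.59 for the whole 19S particle, -0.66 to 0.40 for the 19S chaperones, -0.32 to 0.39 for the activators, -1.22 to -0.30 for Psmf1 and -0.39 to 0.66 for all members. Such a fit assumes that the lone library varies like the other tissue's pair. The causes of these changes were not tested. The share of gene counts held by the family differed by 0.194 percentage points between tissues, and by -0.01 with TMM-scaled library sizes. A value with no test was counted as moved where it changed by more than the SD between libraries of a tissue, unpaired as in the test. That spread was chosen after seeing the data, in place of the SD between the ratios of the 2 mice, and it counts far fewer: 11 of 191 values moved, against 97 with the SD between mice, which was 0.0020 for the alpha ring. The alpha ring median was 0.22 with no filter, 0.52 with RLE factors, 0.68 on library gene totals, 0.69 at a minimum count of 50 and 0.95 with upper-quartile factors. Depth was lowest in omental mouse 3, and Psma8 had 6 to 19 counts in a library.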
